A study of Mus musculus with 4 samples.

Results

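Interferon-stimulated genes are the genes that cells switch on when type I or type II interferon reaches its receptor. Here 36 of them, given as a list of known members and kept where their mean over the 4 libraries was at least 10 normalized counts, were followed in LSK cells of control mice and of mice with conditional knockout of *Bptf*, the chromatin remodeller subunit of the NURF complex. All 36 had a row and passed that minimum, out of 18598 genes listed and 14858 genes at or above it, and the lowest member was *Ifit3*. LSK cells (lineage-negative, SCA-1-positive and c-KIT-positive) are the fraction of bone marrow that holds hematopoietic stem and early progenitor cells. They were sorted from long bones of C57BL/6 mice of about 3 months, with the cells of 5 mice pooled for each library. The 2 control libraries came from littermates with floxed *Bptf* alleles and no cre, and the 2 Bptf-cKO libraries (genotype label Bptf -/-) from littermates that also carried *Mx1*-cre, a transgene in which the interferon-responsive *Mx1* promoter drives cre. Both genotypes had received pIpC, a synthetic double-stranded RNA that induces interferon and so turns on the transgene, and cells were taken 10 days after cre induction. No library came from uninjected mice, so what pIpC itself did to these genes was not measured, and the transgene is present in 1 genotype alone.

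As background, double-stranded RNA is sensed by receptors such as MDA5, RIG-I and TLR3, which leads to secretion of type I interferon. The receptor IFNAR then activates JAK1 and TYK2, and the complex ISGF3, which contains STAT2 and IRF9, binds the interferon-stimulated response element (ISRE) in promoters. Type II interferon acts mainly through the gamma-activated site (GAS) and is a strong inducer of the immunity-related GTPases and guanylate-binding proteins. In hematopoietic stem cells interferon is known for pushing quiescent cells into cycle and for raising SCA-1 on the surface.

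Because ISGF3 reads promoter sequence, the windows before the transcription start are shown for members that lay below control (*Rsad2*, *Ifit1*, *Oas1a*), above control (*Bst2*) or overlapped with it (*Isg15*, *Gbp3*, *Igtp*). RefSeq promoter windows on GRCm38.p6, from 250 bases before to 50 bases after the start, were matched by symbol for 26 of the 36 members, and *Mx1*, *Mx2*, *Dhx58*, *Oas2*, *Usp18*, *Zbp1*, *Rtp4*, *Parp9*, *Parp14* and *Ifi27* had no match. The ISRE core was searched as GAAA, any 2 bases and GAAA again, on both strands, and the GAS as TTCNNNGAA, which reads the same on both. The 140 bases before the start follow 5′ to 3′ on the strand of the gene, with ISRE matches in capitals. Each ends at the base before the RefSeq start of its gene, at chr12:26456453-26456592 (minus strand) for *Rsad2*, chr19:34640749-34640888 (plus) for *Ifit1*, chr5:120907526-120907665 (minus) for *Oas1a*, chr4:156200819-156200958 (minus) for *Isg15*, chr8:71537473-71537612 (minus) for *Bst2*, chr3:142559904-142560043 (plus) for *Gbp3* and chr11:58199416-58199555 (plus) for *Igtp*. GENCODE vM21 starts *Ifit1* at 34640871 and *Gbp3* at 142560026, within these stretches.
Rsad2: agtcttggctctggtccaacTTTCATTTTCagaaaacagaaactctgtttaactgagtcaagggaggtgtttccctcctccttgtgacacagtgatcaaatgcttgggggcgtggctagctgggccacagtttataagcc
Ifit1: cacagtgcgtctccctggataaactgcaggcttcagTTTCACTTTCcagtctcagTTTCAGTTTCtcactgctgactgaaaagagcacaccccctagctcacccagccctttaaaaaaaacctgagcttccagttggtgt
Oas1a: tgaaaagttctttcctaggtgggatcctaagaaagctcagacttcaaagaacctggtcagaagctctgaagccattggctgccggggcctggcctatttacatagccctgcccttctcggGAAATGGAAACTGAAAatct
Isg15: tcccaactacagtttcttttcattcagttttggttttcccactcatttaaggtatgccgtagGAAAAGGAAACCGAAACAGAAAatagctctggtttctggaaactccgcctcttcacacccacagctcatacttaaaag
Bst2: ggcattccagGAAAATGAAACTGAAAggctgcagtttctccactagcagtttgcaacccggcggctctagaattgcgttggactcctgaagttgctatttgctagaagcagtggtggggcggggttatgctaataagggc
Gbp3: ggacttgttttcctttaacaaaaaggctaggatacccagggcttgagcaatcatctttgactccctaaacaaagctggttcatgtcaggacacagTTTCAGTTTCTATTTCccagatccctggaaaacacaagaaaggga
Igtp: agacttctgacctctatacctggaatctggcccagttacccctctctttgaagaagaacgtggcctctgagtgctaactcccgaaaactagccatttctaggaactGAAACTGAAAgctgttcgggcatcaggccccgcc

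An ISRE match was found for 14 of the 26 members with a window, against 3.81% of the 10378 tested genes with a window and 3.44% of all 32851 windows. A GAS match was found for 6 of the 26, against 8.36% of those tested genes, and 3 members (*Oas1a*, *Bst2* and *Igtp*) held both. The 3 matches of *Isg15* overlap one another in a run of GAAA repeats, the 2 of *Oas1a*, *Gbp3*, *Irgm1* and *Bst2* likewise, and the GAS letters of *Bst2*, first base at -136, run into its ISRE letters at -130. ISRE matches stood both in windows of members below control (*Ifit3*, *Rsad2*, *Ifit1*) and in those of members above control or without an ordered difference (*Bst2*, *Gbp3*, *Irgm1*). A match describes letters and not binding, and a window without a match, such as that of *Oasl2* or *Ifi44*, says nothing of a site elsewhere.

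**Figure D1:**
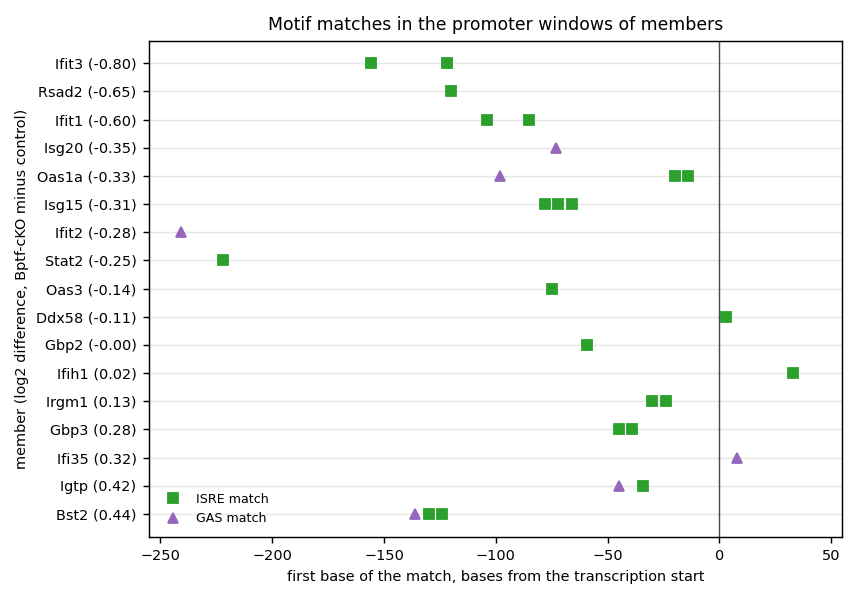
Position of ISRE matches (green squares) and GAS matches (purple triangles) in the promoter windows of the 17 members with at least 1 match; the x axis is the first base of the match in bases from the transcription start, and members are ordered by their log2 difference, Bptf-cKO minus control, given in parentheses. ISRE matches occur at both ends of the order, from *Ifit3* (-0.80) to *Bst2* (0.44).

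The libraries were checked before the members were read. They held between 14091054 and 30134742 reads on listed genes, with replicate 1 the deeper in both genotypes. *Bptf* had 5520 and 5850 normalized counts in control and 3398 and 3320 in Bptf-cKO (log2 difference -0.76, SE 0.090, limma adjusted p = 0.0439), and *Kit* a log2 difference of -0.010. That call of *Bptf* was lost when any single library was left out, with limma adjusted p values of 0.0647 to 0.316. Replicates 1 and 2 stood apart: *Xist* was at most 3.25 normalized counts in replicate 1 and at least 11843 in replicate 2 of both genotypes, so differences within the replicate number are also given. The 11 LSK markers, all with a row, summed to 62235 and 55695 in control and 47579 and 45610 in Bptf-cKO, with 5 below control in both Bptf-cKO libraries and 0 above, beside 23.8% and 23.2% of all tested genes. The 6 erythroid markers summed to 998 and 1059 in control and 211 and 340 in Bptf-cKO, with 5 of them below in both libraries and 1 (*Epor*) called lower. Neutrophil markers ranged from 11128 to 75450 in control and 36969 to 46477 in Bptf-cKO, and B cell markers from 1793 to 6807 and 2262 to 3813. The T cell markers *Cd3d*, *Cd3e* and *Cd3g* and the NK marker *Ncr1* had no row, and the 2 listed markers of that list, *Nkg7* and *Klrb1c*, summed to 1940 and 1229 in control and 2284 and 2297 in Bptf-cKO. Of 6 markers of plasmacytoid dendritic cells, the main producers of type I interferon, 3 had a row and *Siglech* had none. The 3 summed to 101 and 52.7 in control and 2220 and 1857 in Bptf-cKO, where the sum was nearly all *Cox6a2*, which limma called higher. Of these 3 markers, 1 lay above control in both Bptf-cKO libraries and 1 below, beside 23.2% and 23.8% of all tested genes. The part of these cells in the members' values was not tested, and in bulk samples fewer cells of a type cannot be told apart from less RNA per cell.

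No member passed an adjusted p of 0.05 in limma fitted on genotype alone, in either direction, yet most lay below control in Bptf-cKO LSK cells. Calls differed with the replicate number as a block, as given at the end. The difference, Bptf-cKO minus control on the scale of log2(normalized count + 1), was below 0 for 28 members, beside 49.8% of all tested genes, and above 0 for 8, with a median of -0.27 against 0.0010 for all 14858 tested genes. Both Bptf-cKO libraries lay below both control libraries for 21 of the 36 members, where 23.8% of all tested genes did so, and above both for 2, *Bst2* and *Ifi35*, where 23.2% did. Among all tested genes limma called 0.37% lower and 0.37% higher. At an unadjusted limma p under 0.05 the counts were 12 members lower and 0 higher, beside 8.96% and 6.79% of all tested genes. They were 7 and 0 without control replicate 1 (8.18% and 7.75%), 6 and 0 without Bptf-cKO replicate 2 (4.72% and 2.51%), 9 and 3 without Bptf-cKO replicate 1 (6.1% and 3.55%) and 10 and 1 without control replicate 2 (8.63% and 6.27%). On whole reads recovered from the deposited values, the edgeR quasi-likelihood test also called 0 members at an adjusted p of 0.05 (0.303% of all tested genes lower and 0.33% higher), with 11 lower and 0 higher at an unadjusted p under 0.05 (9.01% and 6.7%). DESeq2 on the same reads called 4 members lower (*Dhx58*, *Mx1*, *Rsad2* and *Rtp4*) and 0 higher, beside 3.37% and 2.15% of all tested genes. The smallest p that exact permutation of 2 libraries against 2 allows, two-sided, is 0.333. The p-values from these fits, which hold genotype alone, measure the spread between pools of mice. That spread includes any difference between replicates 1 and 2 that both genotypes share. With single libraries left out, the members below control in all remaining libraries numbered 24 without control replicate 1 (37.9% of all tested genes), 23 without control replicate 2 (38.8%), 22 without Bptf-cKO replicate 1 (36.1%) and 27 without Bptf-cKO replicate 2 (34.4%).

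**Figure D2:**
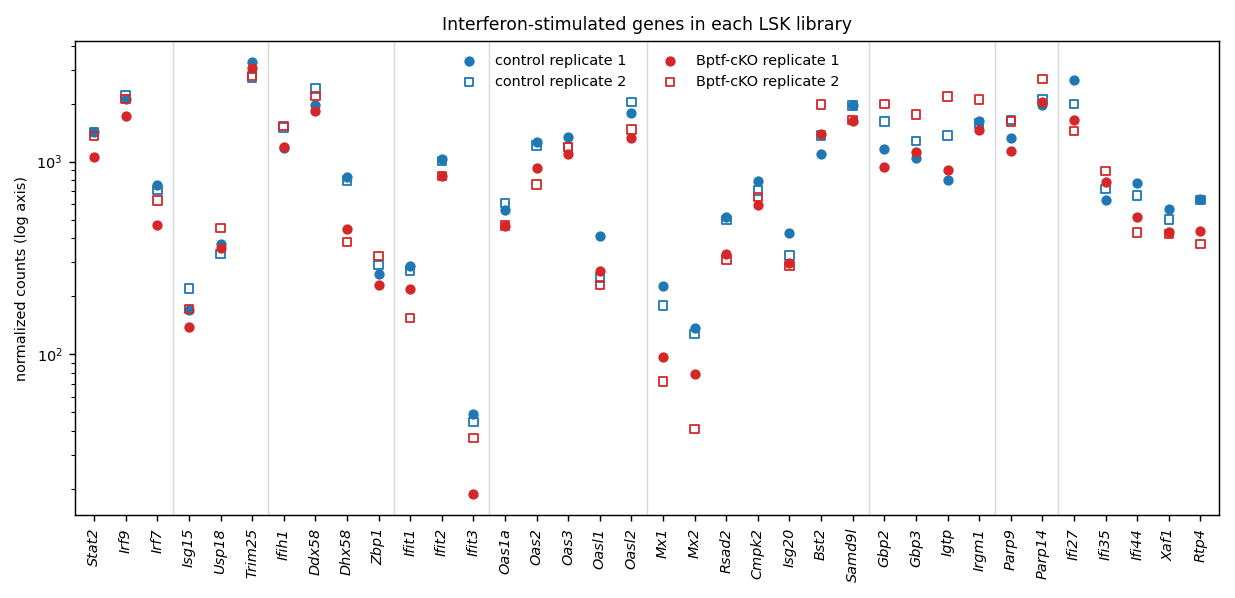
Normalized counts (log axis) of each of the 36 members in the 4 libraries, with control in blue, Bptf-cKO in red, replicate 1 as filled circles and replicate 2 as open squares, and grey lines between groups of members by role. The red symbols lie below both blue ones for 21 members, with the widest gaps at *Mx1*, *Mx2* and *Dhx58*, whereas the GTPases *Gbp2*, *Gbp3*, *Igtp* and *Irgm1* stand highest in Bptf-cKO replicate 2.

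The transcription factors that carry the signal to promoters had log2 differences below 0, and none passed the test. *Stat2*, the ISGF3 subunit with the activation domain, had 1419 and 1425 normalized counts in the control libraries and 1059 and 1357 in Bptf-cKO (replicates 1 and 2 throughout). *Irf9*, its DNA-binding partner, had 2121 and 2218 in control and 1732 and 2116 in Bptf-cKO, a gap between the groups that closed when the libraries were recentred on their medians. *Irf7*, which amplifies interferon-alpha production, had 757 and 714 in control and 471 and 629 in Bptf-cKO. All 3 factors were thus lower in both Bptf-cKO libraries, but Bptf-cKO replicate 2 stood closer to control for each. Their log2 differences were -0.25 (SE 0.15, limma adjusted p = 0.498) for *Stat2*, -0.18 (SE 0.13, limma adjusted p = 0.576) for *Irf9* and -0.43 (SE 0.18, limma adjusted p = 0.331) for *Irf7*. The members of the ISG15 pathway overlapped between the genotypes. *Isg15*, the ubiquitin-like modifier itself, had 169 and 219 in control and 139 and 172 in Bptf-cKO. *Usp18*, which removes ISG15 from proteins and also dampens IFNAR signalling, had 375 and 331 in control and 356 and 453 in Bptf-cKO. *Trim25*, a ubiquitin ligase that acts with RIG-I, had 3280 and 2743 in control and 3066 and 2792 in Bptf-cKO, a log2 difference of -0.036, which became 0.016 after recentring.

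Of the nucleic acid sensors, 1 stood apart. *Dhx58*, which encodes LGP2, the helicase without signalling domains that tunes MDA5 and RIG-I, had 828 and 800 normalized counts in control and 447 and 382 in Bptf-cKO. The groups were well apart and the libraries within each were close. The means were 814 ± 19.9 (SD, n = 2) and 415 ± 45.8 (SD, n = 2), a log2 difference of -0.97 (SE 0.14, 95% interval -1.33 to -0.62, limma adjusted p = 0.0632). DESeq2 gave it an adjusted p of 6.12e-05 and edgeR one of 0.0751, and it was the member with the smallest p in limma. *Dhx58os*, which overlaps its exons on the opposite strand, was listed under 6 normalized counts in each control library. Strandedness is not given, so reads on the overlap could be shared between *Dhx58os* and *Dhx58* or left uncounted. The signalling sensors *Ifih1* (MDA5) and *Ddx58* (RIG-I) overlapped between the genotypes. *Ifih1* had 1183 and 1504 in control and 1196 and 1529 in Bptf-cKO, a log2 difference of 0.020 (95% interval -0.44 to 0.48). *Ddx58* had 1970 and 2392 in control and 1841 and 2198 in Bptf-cKO, a log2 difference of -0.11 (95% interval -0.48 to 0.26). *Zbp1*, the sensor of Z-form nucleic acid that can start necroptosis, had its highest and its lowest value both in Bptf-cKO, at 323 and 229.

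The *Ifit* genes, which lie within the same stretch of chromosome 19 (34550694 to 34650009 on GRCm38 in GENCODE vM21) and encode proteins that bind viral RNA ends, were lower in both Bptf-cKO libraries. *Ifit1* had 286 and 272 normalized counts in control and 218 and 154 in Bptf-cKO. *Ifit2* had 1033 and 1010 in control and 844 and 841 in Bptf-cKO. *Ifit3* had 48.8 and 44.4 in control and 18.8 and 36.7 in Bptf-cKO, from at least 26 reads in each library. The control libraries were close to each other for all 3, whereas the Bptf-cKO libraries spread apart for *Ifit1* and *Ifit3*. The log2 differences were -0.60 (SE 0.23) for *Ifit1*, -0.28 (SE 0.11) for *Ifit2* and -0.80 (SE 0.45) for *Ifit3*, with limma adjusted p values of 0.305, 0.307 and 0.472. *Ifit3* has a near-identical neighbour, *Ifit3b*, which was listed below the minimum, so reads could be split between them.

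The oligoadenylate synthetases make the second messenger that activates RNase L, and the related *Oasl1* and *Oasl2* proteins lack or differ in that activity. All 5 lay on chromosome 5, in 2 groups, and all 5 had a log2 difference below 0. *Oas2* had 1261 and 1210 normalized counts in control and 931 and 759 in Bptf-cKO, a log2 difference of -0.55 (SE 0.14, limma adjusted p = 0.167). *Oasl2* had 1800 and 2043 in control and 1334 and 1469 in Bptf-cKO, a log2 difference of -0.45 (SE 0.12, limma adjusted p = 0.179). These 2 genes showed clear gaps between the genotypes. *Oas1a*, which has close paralogs such as *Oas1g* that could share its reads, had 563 and 608 in control and 464 and 467 in Bptf-cKO. *Oas3*, directly beside *Oas2*, had 1339 and 1193 in control and 1099 and 1189 in Bptf-cKO, a gap so small that it closed on recentring. *Oasl1*, a translational brake on *Irf7*, overlapped between the groups because control replicate 1 (410) stood above the other 3 libraries (229 to 271).

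The largest differences among the members were those of *Mx1* and *Mx2*, of a family of dynamin-like GTPases known for blocking viral nucleocapsids. Counts of RNA do not show whether either gene makes a working protein in these mice. *Mx1* had 227 and 179 normalized counts in control and 96.2 and 72.0 in Bptf-cKO, the mice in which the *Mx1* promoter also drives cre. *Mx2* had 136 and 128 in control and 79.3 and 40.9 in Bptf-cKO. Every Bptf-cKO value lay well below every control value for both genes. The log2 differences were -1.27 (SE 0.27, 95% interval -1.95 to -0.59, limma adjusted p = 0.126) for *Mx1* and -1.20 (SE 0.38, 95% interval -2.16 to -0.23, limma adjusted p = 0.244) for *Mx2*, with DESeq2 adjusted p values of 0.0154 and 0.205. Fewest reads behind a value were 51 for *Mx1* and 29 for *Mx2*. Both lie on chromosome 16, *Mx1* from 97447035 to 97462907 and *Mx2* from 97535308 to 97560900, and GENCODE types *Mx2* as a polymorphic pseudogene in this strain's genome.

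*Rsad2* (viperin, which makes a chain-terminating nucleotide) had 514 and 496 normalized counts in control and 332 and 310 in Bptf-cKO, a log2 difference of -0.65 (SE 0.14, 95% interval -1.01 to -0.29, limma adjusted p = 0.132, DESeq2 adjusted p = 0.0369). *Cmpk2*, the nucleotide kinase gene next to it on chromosome 12, had 795 and 710 in control and 596 and 653 in Bptf-cKO, a log2 difference of -0.27 (SE 0.13). The pair therefore shared its direction, and both were lower in both Bptf-cKO libraries. *Samd9l*, an antiviral restraint on translation that also limits progenitor growth, had nearly equal libraries within each genotype, 1963 and 1954 in control and 1620 and 1648 in Bptf-cKO (log2 difference -0.26, SE 0.093, limma adjusted p = 0.280). *Isg20*, an RNA exonuclease, had 427 and 326 in control and 296 and 288 in Bptf-cKO. *Bst2* (tetherin, which holds budding virions at the surface) was 1 of the 2 members above control in both libraries, with 1090 and 1365 in control and 1390 and 1980 in Bptf-cKO. Its lower Bptf-cKO value was close to the higher control value, and its log2 difference was 0.44 (SE 0.21, limma adjusted p = 0.398).

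The remaining antiviral members divided in the same way. *Rtp4*, a chaperone-like gene that restrains the interferon response, had 640 and 632 normalized counts in control and 437 and 372 in Bptf-cKO, a log2 difference of -0.66 (SE 0.15, 95% interval -1.03 to -0.29, limma adjusted p = 0.134, DESeq2 adjusted p = 0.0330). *Ifi44* had 774 and 667 in control and 518 and 428 in Bptf-cKO, a log2 difference of -0.61 (SE 0.16, limma adjusted p = 0.186). *Ifi27*, a small mitochondrial and nuclear membrane protein gene, had 2648 and 1999 in control and 1651 and 1445 in Bptf-cKO, a log2 difference of -0.57 (SE 0.17, limma adjusted p = 0.208). For these 3 genes the groups did not overlap. *Xaf1*, a proapoptotic antagonist of XIAP, had 569 and 500 in control and 429 and 420 in Bptf-cKO. *Ifi35*, which pairs with NMI, went the other way, with 629 and 721 in control and 788 and 893 in Bptf-cKO, a log2 difference of 0.32 (SE 0.14, limma adjusted p = 0.364). The ADP-ribosyltransferases *Parp9* and *Parp14*, which both act in macrophage responses to interferon, overlapped between the genotypes at log2 differences of -0.12 (SE 0.21) and 0.20 (SE 0.15).

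**Figure D3:**
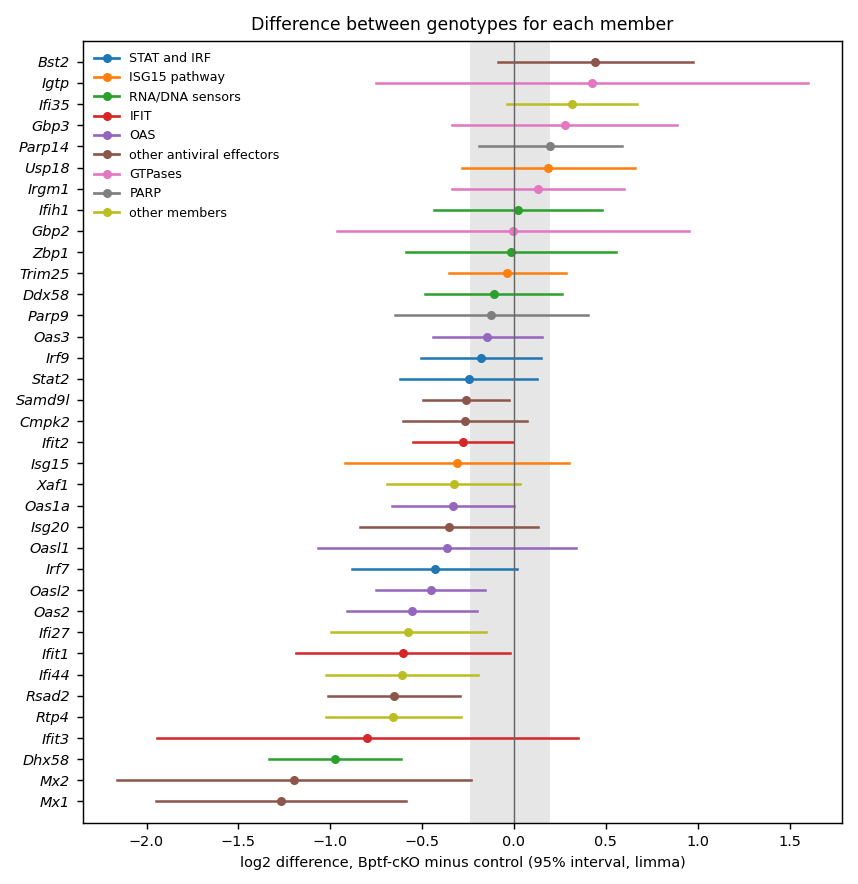
Log2 difference, Bptf-cKO minus control, of each member with its 95% interval from limma (x axis), coloured by role and ordered by size, with the interquartile range of all tested genes shaded. The shading runs from -0.24 to 0.19; *Mx1* (-1.27), *Mx2* (-1.20) and *Dhx58* (-0.97) lie farthest to the left and *Bst2* (0.44) farthest to the right.

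The GTPases that type II interferon induces strongly overlapped between the genotypes, and the replicates of Bptf-cKO differed more than the genotypes did. *Igtp*, an immunity-related GTPase that acts on pathogen vacuoles, had 804 and 1368 normalized counts in control and 909 and 2181 in Bptf-cKO. *Gbp2*, a guanylate-binding protein, had 1158 and 1615 in control and 933 and 1991 in Bptf-cKO. *Gbp3* had 1046 and 1283 in control and 1119 and 1759 in Bptf-cKO. Replicate 2 exceeded replicate 1 in both genotypes for these 3 genes. *Irgm1*, an immunity-related GTPase that protects stem cells from overactivation, had 1624 and 1579 in control and 1466 and 2101 in Bptf-cKO, so only Bptf-cKO replicate 2 stood out. The log2 differences between genotypes were 0.42 (SE 0.46), -0.0045 (SE 0.38), 0.28 (SE 0.24) and 0.13 (SE 0.19) for *Igtp*, *Gbp2*, *Gbp3* and *Irgm1*, with limma adjusted p values of 0.730, 0.998, 0.653 and 0.801. Without Bptf-cKO replicate 2 those of *Igtp*, *Gbp3* and *Irgm1* turned to -0.21, -0.051 and -0.13. That fit sets Bptf-cKO replicate 1 against both control replicates. Within replicates 1 and 2, *Igtp* differed by 0.18 and 0.67 and *Gbp3* by 0.096 and 0.45, so both were higher in each. *Irgm1* differed by -0.15 and 0.41 and *Gbp2* by -0.31 and 0.30. The 8 macrophage markers, all with a row, summed to 1393 and 863 normalized counts in control and 747 and 1249 in Bptf-cKO. Their sum was highest in control replicate 1, where *Igtp* and *Gbp3* were lowest. It was lowest in Bptf-cKO replicate 1, where *Gbp2* and *Irgm1* were lowest. None of the 8 markers separated the genotypes, and the part of macrophages in the values of the GTPases was not tested. The exons of *Igtp* overlap those of *Irgm2* on the same strand, so these 2 genes could share reads.

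Within the replicate numbers the median difference of the members was -0.30 in replicate 1 and -0.16 in replicate 2, where all tested genes had medians of -0.0015 and 0.0045. In both replicate numbers 25 members were lower in Bptf-cKO, where 34.4% of all tested genes were, and 6 were higher, where 34.5% were. The other 5 members, *Usp18*, *Trim25*, *Zbp1*, *Gbp2* and *Irgm1*, were lower in replicate 1 and higher in replicate 2, beside 15.8% of all tested genes. *Mx1* differed by -1.23 and -1.30 in the 2 replicate numbers, *Dhx58* by -0.89 and -1.06 and *Rsad2* by -0.63 and -0.67. The 2 values were close for these 3 genes and farther apart for *Mx2* (-0.78 and -1.62) and *Ifit3* (-1.33 and -0.27). Across the 36 members the differences in the 2 replicate numbers had a Pearson correlation of 0.75 and a Spearman correlation of 0.81. That is a correlation across genes of the same 4 libraries, beside 0.54 and 0.51 across all tested genes, and genes are not independent replicates.

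**Figure D4:**
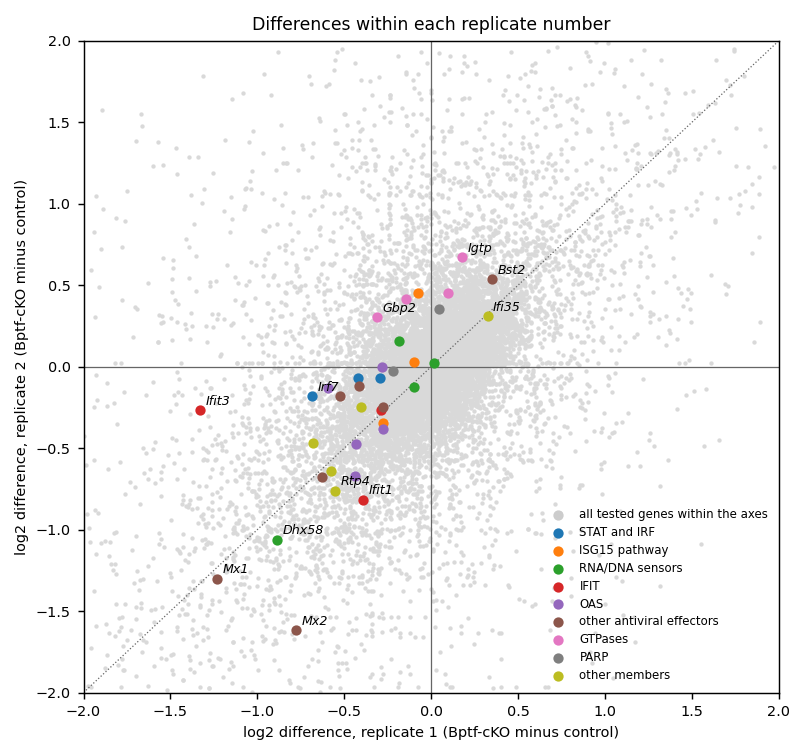
Log2 difference, Bptf-cKO minus control, within replicate 1 (x axis) and within replicate 2 (y axis) for the members, coloured by role, over all tested genes that fall within the axes (grey). The members reach from *Mx1* at -1.23 and -1.30 to *Bst2* at 0.35 and 0.54, and the GTPases lie above the diagonal.

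Levels between genes were compared per length, as normalized counts per kilobase of the longest GENCODE vM21 transcript. On this scale the members had a median of 271 over the 4 libraries, against 173 for the 14608 tested genes with a length, and 28 of the 36 were above that median. *Ifi27* was highest, with 2378 per kilobase in control and 1584 in Bptf-cKO, followed by *Bst2* with 1550 and 2127, so that the order of these 2 was opposite in the genotypes. *Ddx58*, *Irf9*, *Gbp2*, *Trim25* and *Igtp* followed *Oasl2* within a narrow band of 563 to 537 per kilobase in control, where neighbours did not differ beyond the spread of their libraries. The lowest members were *Mx1* (60.0 and 24.8), *Mx2* (53.3 and 24.3) and *Ifit3* (26.7 and 15.9 per kilobase in control and Bptf-cKO). *Dhx58*, with a log2 difference near those of the *Mx* genes, stood higher, at 337 and 172 per kilobase, and *Ifi27*, the highest, differed by -0.57.

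**Figure D5:**
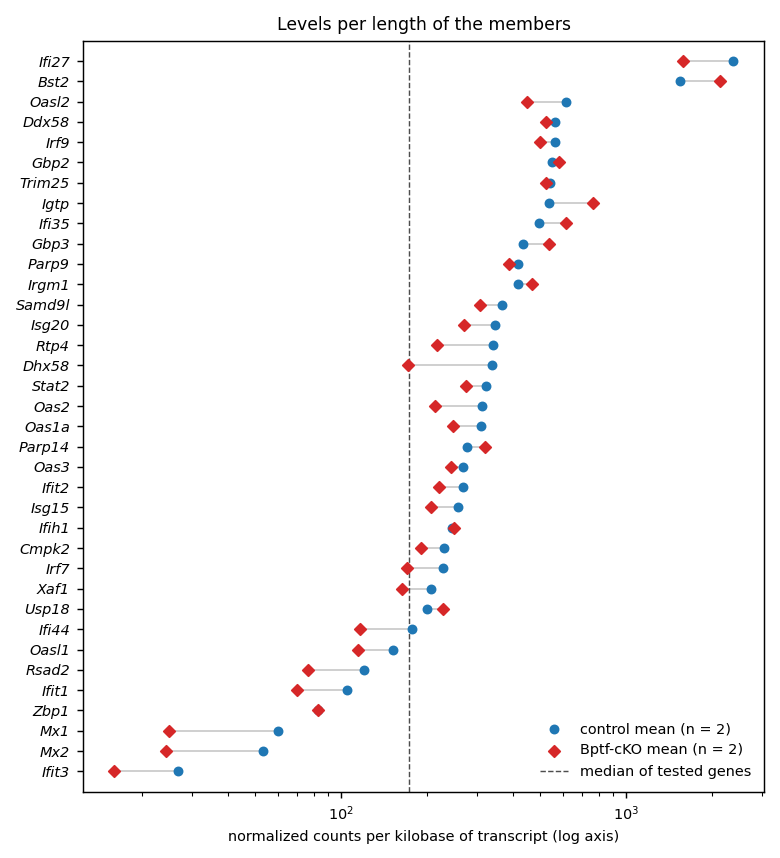
Mean normalized counts per kilobase of transcript (log axis) of each member in control (blue circles, n = 2) and Bptf-cKO (red diamonds, n = 2), ordered by the control level, with the median of the tested genes (173) as a dashed line. *Ifi27* and *Bst2* are the highest and *Mx1*, *Mx2* and *Ifit3* the lowest.

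The rest of the pathway was read from lists of symbols grouped by role. None of the 23 symbols of interferon ligands had a row, which in this table requires at least 11 reads over the 4 libraries. Of 13 sensing and adaptor genes tested, 0 passed an adjusted p of 0.05 in limma (3 lower and 0 higher at an unadjusted p under 0.05), and edgeR called 0 and DESeq2 1 of them lower. For all lists here the shares of all tested genes are 0.37% lower and 0.37% higher in limma, 8.96% and 6.79% at an unadjusted p, 0.303% and 0.33% in edgeR and 3.37% and 2.15% in DESeq2. *Tlr7*, an endosomal receptor for single-stranded RNA, had the largest difference among them, with 267 and 99.8 normalized counts in control and 70.8 and 46.6 in Bptf-cKO (log2 difference -1.49, SE 0.53). *Ikbke*, a kinase that acts on IRF3, had 1256 and 1202 in control and 900.1 and 876 in Bptf-cKO (log2 difference -0.47, SE 0.11, limma adjusted p = 0.139, DESeq2 adjusted p = 0.0454). *Tmem173* (STING) and *Irf5* had log2 differences of -0.32 (SE 0.098) and -0.45 (SE 0.23).

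Of 11 receptor and signalling genes, limma called 0, with 0 also at an unadjusted p under 0.05, and edgeR and DESeq2 called 0. The receptor chains *Ifnar1* and *Ifnar2* had log2 differences of -0.028 and -0.010, and the kinases *Jak2* and *Tyk2* of -0.18 and 0.22. *Irf8*, a factor of monocyte and dendritic cell development, had 1789 and 708 normalized counts in control and 645 and 604 in Bptf-cKO (log2 difference -0.85, SE 0.43). Of 8 restraint genes limma called 0 (1 lower and 0 higher at an unadjusted p under 0.05, beside 8.96% and 6.79% of all tested genes), edgeR 0 and DESeq2 1 lower, beside 3.37% of all tested genes. *Socs3*, a feedback inhibitor of JAKs, had 374 and 225 in control and 96.8 and 121 in Bptf-cKO, a log2 difference of -1.41 (SE 0.31, limma adjusted p = 0.132, DESeq2 adjusted p = 0.00397). *Irf2*, *Pias1* and *Ptpn6* had log2 differences of -0.37, -0.24 and -0.19.

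Among 66 further interferon-stimulated genes, limma called 1 lower and 0 higher, beside 0.37% and 0.37% of all tested genes, and 15 and 1 at an unadjusted p under 0.05, beside 8.96% and 6.79%. Their median log2 difference was -0.19. Both Bptf-cKO libraries lay below both control libraries for 25 of them and above for 5, where 23.8% and 23.2% of all tested genes did so. The gene that fell was *Ifitm1*, which encodes an antiviral membrane protein, with 3769 and 3602 normalized counts in control and 1245 and 1007 in Bptf-cKO. Its means were 3685 ± 118 (SD, n = 2) and 1126 ± 168 (SD, n = 2), a log2 difference of -1.72 (SE 0.13, limma adjusted p = 0.0204). Its limma adjusted p was 0.0361 and 0.0434 without control replicate 1 and 2, but 0.0688 and 0.134 without Bptf-cKO replicate 1 and 2, fits in which 1 gene in all passed. *Ly6a*, which encodes the SCA-1 antigen of the sort and is itself induced by interferon, had 815 and 1369 in control and 726 and 1743 in Bptf-cKO. It was thus higher in replicate 2 of both genotypes, as *Igtp* and *Gbp2* were.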

How the data were processed

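RNA-seq of sorted LSK cells was deposited as 1 table for 4 libraries. Per the labels, the authors' tools include HISAT2, featureCounts and DESeq2 with the GRCm38 build; versions, annotation and strandedness are not given in the sources used here. The deposited values are a signal, namely the gene counts after scaling of each library by its size factor, and all of them (100%, tolerance 1e-06 reads) were whole multiples of the smallest non-zero value in their library, so reads could be recovered. The authors also deposited a mean over libraries and their own comparison (log2 fold change, a standard error and a test score, p-value and adjusted p-value), which was not used.

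Genes averaging 10 normalized counts or more were compared on log2(value + 1), which understates changes of low genes, with limma 3.58.1 (mean-variance trend, genotype only, Benjamini-Hochberg over all tested genes, two-sided, adjusted p under 0.05 called). edgeR 4.0.16 and DESeq2 1.42.0 were run on the recovered reads, in R 4.3.3, and the fits were tested on simulated data. The simulation gave every gene the same dispersion, so it does not show how the fits perform at the spread of these libraries. Tables were made with Python 3.11.15 and pandas 2.3.3. The named genes are all 36 members, *Bptf*, *Kit*, *Ly6a*, *Xist*, and from each pathway list those called or else the 4 largest differences at a mean of at least 100; other genes named, such as the receptor chains, overlapping genes and single markers, were picked with their values in view. Some genes that the rule names are not reported here. The members and lists were chosen with earlier results of these data known. Positions are from GENCODE vM21 and promoters from RefSeq, both on GRCm38. Besides *Igtp* and *Dhx58*, exons of *Irf7*, *Irf9*, *Parp9*, *Oasl1* and *Usp18* overlap those of another listed gene.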

Additional observations from a re-analysis of the deposited data

How the results depend on the processing

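The median log2 difference of the members was -0.27 and stayed below 0 in each alternative run, from -0.33 to -0.21 when single libraries were left out. Members called numbered 0 with limma at other pseudocounts, filters and scalings, with single libraries left out (0 in each) and with edgeR, but 4 with DESeq2 (all genes 819, pathway genes 4). The labels give both genotypes replicate numbers 1 and 2 without saying what they mark. Across 14858 genes the replicate 1 minus replicate 2 differences of the 2 genotypes had a correlation of 0.45. With the replicate number as a block, limma called 11 members (9 lower, 2 higher), 30 pathway genes and 2138 genes in all, so that 8.36% of tested genes were lower and 6.03% higher, and edgeR with the replicate block called 11, 29 and 2120. The 9 lower members were *Dhx58*, *Oas2*, *Oasl2*, *Mx1*, *Mx2*, *Rsad2*, *Ifi27*, *Ifi44* and *Rtp4* and the 2 higher ones *Bst2* and *Igtp*. Limma without the trend called 2 genes in all and 0 pathway genes. Leaving out 1 library left 1 to 117 genes and 0 to 2 pathway genes called, with 64 genes without control replicate 2 and 1 without Bptf-cKO replicate 1 or without Bptf-cKO replicate 2. *Bptf* kept its direction throughout and missed the threshold after recentring (-0.71, limma adjusted p = 0.0547), without the trend (-0.76, 0.178), with edgeR (-0.76, 0.0531) and without any single library (-0.80 to -0.72); the cause was not tested. Recentring turned *Trim25* to 0.016, *Zbp1* to 0.037 and *Gbp2* to 0.047, edgeR turned *Zbp1* to 0.0023 and *Gbp2* to 0.075, and DESeq2 turned them to 0.0011 and 0.078. Recentring left 19 members below control in both libraries, beside 19.8% of all tested genes, and moved the median of all genes by 0.05. With single libraries left out, signs turned for *Trim25* (-0.17 to 0.093), *Ifih1* (-0.16 to 0.20), *Ddx58* (-0.25 to 0.030), *Zbp1* (-0.26 to 0.23), *Gbp2* (-0.55 to 0.54), *Parp9* (-0.38 to 0.13), *Gbp3* (-0.051 to 0.60), *Igtp* (-0.21 to 1.06) and *Irgm1* (-0.13 to 0.39). These fits hold no replicate term, so the genotypes are unbalanced for the replicate number in each. Within both replicate numbers *Ifih1*, *Gbp3* and *Igtp* were higher in Bptf-cKO, and *Ddx58* and *Parp9* were lower. *Trim25*, *Zbp1*, *Gbp2* and *Irgm1* differed in sign between the replicate numbers. A lone library left in a genotype is assumed to vary like the others. Depth limits mainly *Ifit3*, with 29 and 26 reads in the Bptf-cKO libraries, and *Mx2*, with 29 in Bptf-cKO replicate 2.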
